A study of Homo sapiens with 21 samples.

Results

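The RNA response of HEK293T cells to 24 h of tunicamycin was measured in 6 of the 21 libraries of a study of endoplasmic reticulum (ER) stress, 3 from cells given tunicamycin at 1 μg/mL and 3 from cells given DMSO, the solvent, for the same time. HEK293T is an established line derived from human embryonic kidney that carries the SV40 large T antigen, and the cells were grown in DMEM at 50% confluency before treatment. The comparison covered the 14837 of 60671 genes with at least 1 CPM (counts per 1e+06 counts of a library) in at least 3 of these 6 libraries. The remaining libraries are from OCI-AML3, a human acute myeloid leukaemia line, and of these the 6 libraries given DMSO or tunicamycin for 24 h at the same dose were used to ask where the effect differed between the lines. All levels come from polyadenylated RNA. They are CPM after TMM scaling, which sets libraries to a common level by the genes that change least. The summed levels of marker genes are CPM without TMM.

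Tunicamycin blocks the enzyme that builds the first sugar-lipid intermediate of N-glycosylation, so that glycoproteins enter the ER lumen without their glycans and fold poorly. The unfolded protein response (UPR) that follows has 3 known arms. IRE1 splices the mRNA of the transcription factor XBP1, ATF6 is cut in the Golgi to release a transcription factor, and both act on genes of chaperones, oxidoreductases and degradation. PERK phosphorylates the initiation factor eIF2α, which slows translation in general and favours translation of ATF4, a factor known to act on genes of amino acid uptake and synthesis.

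The 6 libraries held 13838480 to 19961819 counts, and the shallowest was replicate 3 of tunicamycin. The first principal component of log2 CPM carried 61.4% of the variance and separated the treatments, and the second carried 12.8% and set that shallowest library, at -20.4, apart from the other tunicamycin libraries at 9.61 and 12.5. On the same axis replicate 3 of DMSO, the deepest library, lay at -9.81, apart from the other DMSO libraries at 1.78 and 6.39. Pearson correlations across genes were 0.991 to 0.993 within a treatment and 0.975 to 0.980 between treatments. Of 12 genes known to mark HEK293T cells, 11 passed the filter, and their summed level was 402 to 412 CPM after DMSO and 430 to 446 CPM after tunicamycin, whereas PAX8 was at 0 in every library. Of 12 myeloid markers 2 passed, CORO1A and VAV1, with PTPRC and MPO at 0, and the summed myeloid level was 8.24 to 13.2 CPM against 2822 to 3069 CPM in the OCI-AML3 libraries at 24 h.

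Tunicamycin changed many genes of HEK293T cells by a little and few by much. With edgeR's quasi-likelihood test and Benjamini-Hochberg adjustment over the 14837 genes, 3242 rose and 3183 fell at an adjusted p of at most 0.05, which is 21.9% and 21.5% of the genes tested. Of these, 272 rose and 102 fell by more than 1 on the log2 scale, 1.83% and 0.687% of the genes tested and 2.52% together, and these are the genes termed called. Counts for the gene lists below are to be read against these shares. The split depended on the scaling, since without TMM 2706 rose and 3928 fell, and 250 were called higher and 127 lower. The counts also moved in other settings. In the fit to all 21 libraries 1954 rose and 1977 fell, and with every gene of at least 1 count tested 227 were called lower. The median log2 fold change of all genes was 0.0003 and the median of its absolute size was 0.196. The labels do not say whether the 3 libraries of a group came from separate cultures, so that a p-value measures the spread between these libraries, which may be technical. In bulk RNA, fewer cells of a type or a cell cycle stage and less RNA per cell cannot be told apart.

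**Figure D1:**
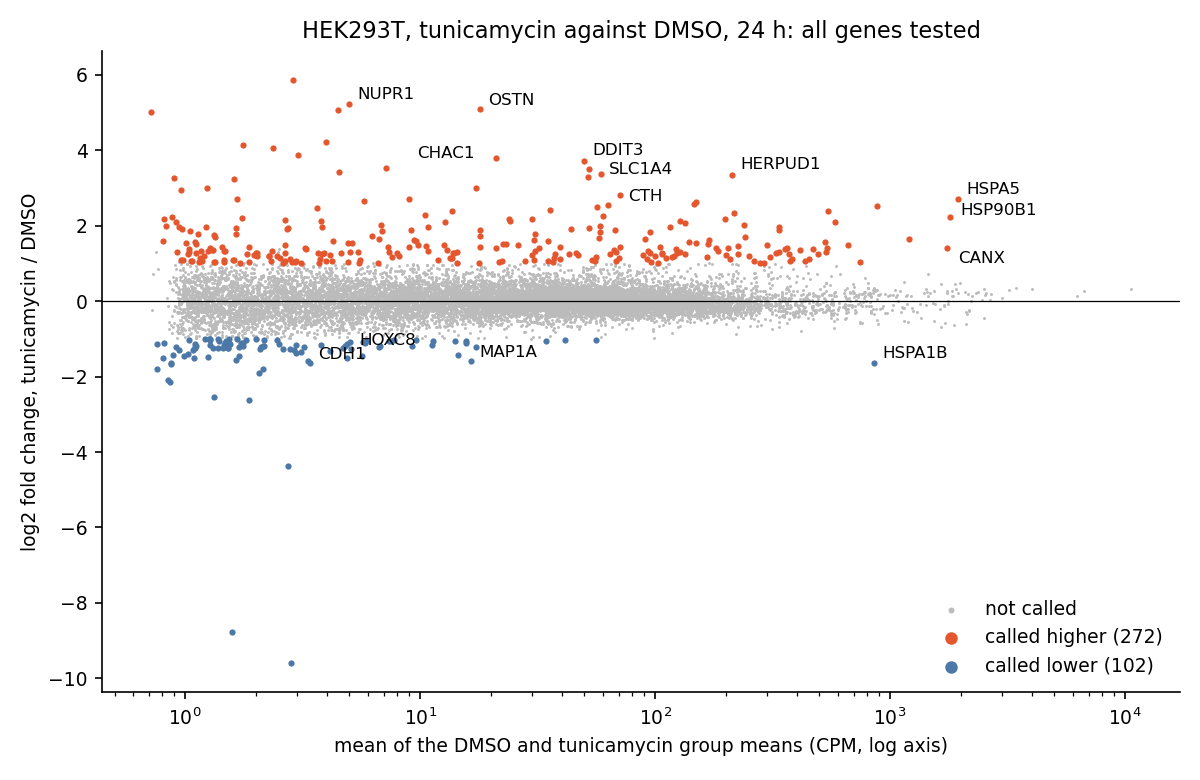
Each point is a gene, plotted by its mean level in CPM on a log axis and its log2 fold change of tunicamycin over DMSO in HEK293T cells. The 272 genes called higher include abundant mRNAs such as HSPA5 and HSP90B1, whereas the 102 genes called lower lie mostly below 10 CPM, with HSPA1B the most abundant of them.

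Among called genes with a mean of at least 5 CPM over the 6 libraries and no overlap between the treatments, the gene that rose most was OSTN (ENSG00000188729, chr3:191199241-191265615 on GRCh38), which encodes the secreted peptide osteocrin. Its level was 0.726, 1.46 and 0.89 CPM in the DMSO libraries and 32.6, 33.6 and 38.5 CPM in the tunicamycin libraries. The log2 fold change was 5.09 with a standard error (SE) of 0.15 (adjusted p = 3.90e-16). Without the tunicamycin libraries OSTN would not have passed the filter. CHAC1 (ENSG00000128965, chr15:40952962-40956512), an enzyme that breaks down glutathione, came next at 2.57, 3.51 and 2.57 CPM after DMSO and 39.7, 38.9 and 39.6 CPM after tunicamycin, a log2 fold change of 3.78 (SE 0.11, adjusted p = 1.73e-16). DDIT3 (ENSG00000175197, chr12:57516588-57521737), which encodes the transcription factor CHOP, stood at 6.42, 8.72 and 6.28 CPM and 93.4, 92.2 and 92.5 CPM and rose by 3.71 (SE 0.084, adjusted p = 4.10e-18). In each of the 3 genes the lowest tunicamycin library lay more than 10 times above the highest DMSO library. The other 9 of the 12 largest rises were SLC22A31 at 3.54, DERL3 at 3.51, SLC1A4 at 3.36, HERPUD1 at 3.35, SLC6A9 at 3.28, AKNA at 3.00, CTH at 2.81, HSPA5 at 2.71 and NIBAN1 at 2.69.

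The 7 effectors that the study uses to follow the UPR were all called higher, with a median log2 fold change of 2.09. The study itself named this list, so that its direction is not independent evidence. HSPA5 (ENSG00000044574, chr9:125234853-125241382), the main HSP70 chaperone of the ER lumen, was at 507, 522 and 523 CPM after DMSO and 3426, 3338 and 3409.6 CPM after tunicamycin, a rise of 2.71 (SE 0.028, adjusted p = 2.45e-23) or 6.56-fold. The groups were far apart and the 3 libraries of each differed by less than 5%. HYOU1, an ER nucleotide exchange chaperone, rose by 2.09 (SE 0.036) from 221 ± 1.79 to 943 ± 35.1 CPM (SD, n = 3). DNAJB9, an HSP40 cochaperone of HSPA5, was at 11.3, 11.3 and 11.1 CPM and 57.9, 59.2 and 64 CPM and rose by 2.42 (SE 0.072). XBP1 mRNA, counted over all its isoforms, rose by 1.70 (SE 0.041) from 114 ± 4.51 to 369.7 ± 1.07 CPM, and its IRE1-spliced form was not separated by gene counts. ERO1B, an oxidase that reoxidizes disulfide isomerases, rose by 1.67 (SE 0.059), and EIF2AK3, the gene of PERK, rose by 1.32 (SE 0.072).

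ER chaperones and cochaperones rose as a group. Of 24 members tested 21 rose, 1 fell and 2 did not pass, against 21.9% and 21.5% of all genes, and 14 were called higher, against 1.83% of all genes. The list's median log2 fold change was 1.26. Besides HSPA5, DNAJB9 and HYOU1 the largest rises were MANF, a secreted ER factor that binds HSPA5, at 2.32 (SE 0.045) and HSP90B1, the HSP90 of the ER, at 2.22 (SE 0.029). HSP90B1 was at 629, 629 and 642 CPM after DMSO and 2911, 2891 and 3049 CPM after tunicamycin. The lectin chaperones, which hold glycoproteins through their glycans, rose as well, CALR from 586 ± 16.9 to 1821 ± 38.1 CPM and CANX from 959.6 ± 31.9 to 2546 ± 43.9 CPM (SD, n = 3). The member that fell was FKBP11, a prolyl isomerase, at 11.5, 14.7 and 13 CPM and then 7.05, 8 and 9.04 CPM, a log2 fold change of -0.71 (SE 0.12, adjusted p = 9.50e-05). SDF2, the paralog of SDF2L1, stood at -0.051 on the log2 scale (adjusted p = 0.64), whereas SDF2L1 rose by 2.06 (SE 0.071). As a share of all counts of a library, the 24 genes took 0.415% ± 0.00325 after DMSO and 1.41% ± 0.0121 after tunicamycin (SD, n = 3).

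**Figure D2:**
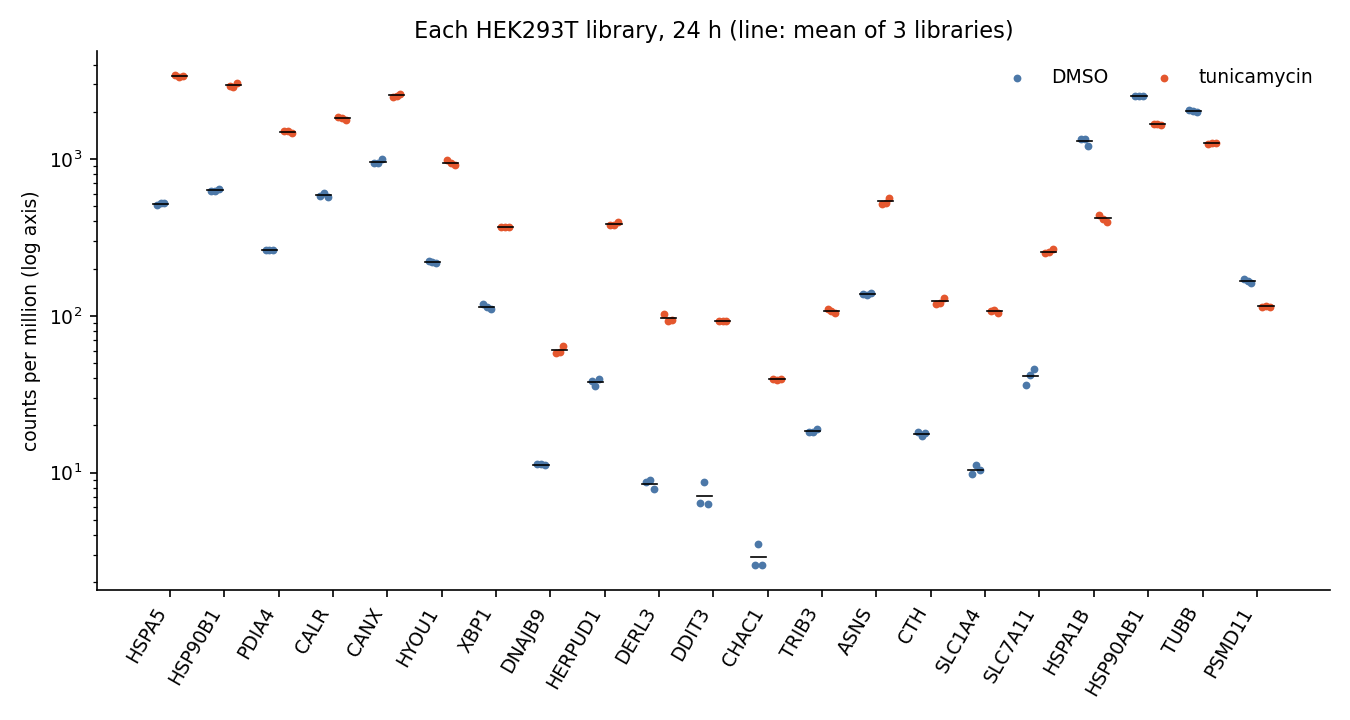
Level of 21 genes in each HEK293T library in CPM on a log axis, DMSO in blue and tunicamycin in orange, with a line at the mean of 3 libraries. The treatments do not overlap for any gene shown, as for 51.7% of all genes tested, and the last 4 genes, HSPA1B, HSP90AB1, TUBB and PSMD11, are lower after tunicamycin.

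Disulfide isomerases and oxidases, which form and reshuffle the disulfide bonds of secreted proteins, rose too. Of 21 members 18 rose, 1 fell and 8 were called higher, against 21.9%, 21.5% and 1.83% of all genes. The median was 0.76. PDIA4 was at 265, 264 and 262 CPM after DMSO and 1521, 1512 and 1465 CPM after tunicamycin, a rise of 2.51 (SE 0.032, adjusted p = 6.12e-22). CRELD1 rose by 1.78 (SE 0.079) and PDIA6 by 1.48 (SE 0.034). The member that fell was QSOX1, an oxidase that acts largely in the Golgi, at -0.23 (SE 0.077, adjusted p = 0.02), and it did not pass in 3 of the alternative settings. The share of all counts in these genes was 0.293% ± 0.00396 after DMSO and 0.649% ± 0.00216 after tunicamycin (SD, n = 3).

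Genes of ER-associated degradation, which return misfolded proteins to the cytosol, were mixed. Of 29 members 20 rose, 4 fell (2 to 4 over the alternative settings) and 8 were called higher, against 1.83% of all genes. The median was 0.42. Those that rose most sit in the ER membrane. DERL3, a derlin of the retrotranslocation channel, was at 8.71, 8.95 and 7.86 CPM after DMSO and 103, 92.8 and 93.8 CPM after tunicamycin, and HERPUD1, which gathers the ubiquitin ligase complex, was at 38.5, 35.8 and 39.8 CPM and 382, 381 and 399.6 CPM. Both were apart in every library. SEL1L and SYVN1, the core of that ligase, rose by 1.39 (SE 0.054) and 1.24 (SE 0.060). NPLOC4, a cytosolic cofactor that extracts ubiquitinated proteins, fell by 0.27 on the log2 scale (SE 0.046, adjusted p = 9.71e-05).

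The machinery of N-glycosylation, the process that tunicamycin blocks, rose in small steps. Of 48 genes for the assembly, transfer and trimming of N-glycans, 40 rose, 1 fell and 7 did not pass, with a median of 0.46. Called higher were 5, against 1.83% of all genes. DPAGT1, the enzyme that tunicamycin inhibits, was at 50, 52.6 and 54.5 CPM after DMSO and 92.4, 86.5 and 85.7 CPM after tunicamycin. It rose by 0.75 (SE 0.055, adjusted p = 8.68e-10), below the fold needed to be called. Subunits of the oligosaccharyltransferase that passes the glycan to the nascent chain rose more, OSTC by 1.32 (SE 0.049), STT3A by 1.29 (SE 0.040) and MAGT1 by 1.15 (SE 0.040). GFPT1, which starts the pathway to UDP-N-acetylglucosamine, rose by 1.28 (SE 0.049). The member that fell was OST4, a small subunit of the same transferase, at -0.15 (SE 0.051, adjusted p = 0.02), and it did not pass in 4 of the alternative settings (adjusted p up to 0.27).

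Genes of entry into and exit from the ER also rose. Of 24 genes of the translocon and signal peptidase 20 rose and 2 fell (0 to 2 over the alternative settings), with a median of 0.60. Called higher were 5, against 1.83% of all genes. TRAM1 rose by 1.48 (SE 0.044), SSR3 by 1.38 (SE 0.039) and SEC61A1, the channel itself, by 1.29 (SE 0.035). Of 43 genes of ER-Golgi transport 32 rose and 3 fell (0 to 4 over the alternative settings), with a median of 0.50. SEC24D, a cargo adaptor of COPII coats, was at 27.1, 31.1 and 28.3 CPM after DMSO and 107, 108 and 104 CPM after tunicamycin, a rise of 1.88 (SE 0.058), and its libraries did not overlap. TMED7, a cargo receptor, rose by 1.17 (SE 0.052). SAR1A, the GTPase that starts the coat, fell by 0.17 on the log2 scale (SE 0.047), and SEC16A, which marks the exit sites, fell by 0.20 (SE 0.049). With the spread taken from all 21 libraries neither passed (adjusted p of 0.084 for SAR1A and 0.066 for SEC16A).

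The sensors of the UPR rose in most members. Of 16 sensors and ER-bound factors tested 12 rose and 0 fell, with a median of 0.31. Beside XBP1 and EIF2AK3, CREB3L2, a membrane-bound relative of ATF6, was called higher at 1.23 (SE 0.051). ATF6 and ERN1, the gene of IRE1, were singled out for their roles after their values had been seen, and rose by 0.68 (SE 0.053) and 0.48 (SE 0.10). NFYA, a subunit of the factor that binds the CCAAT part of the ER stress element, stood at -0.11 on the log2 scale (adjusted p = 0.089).

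**Figure D3:**
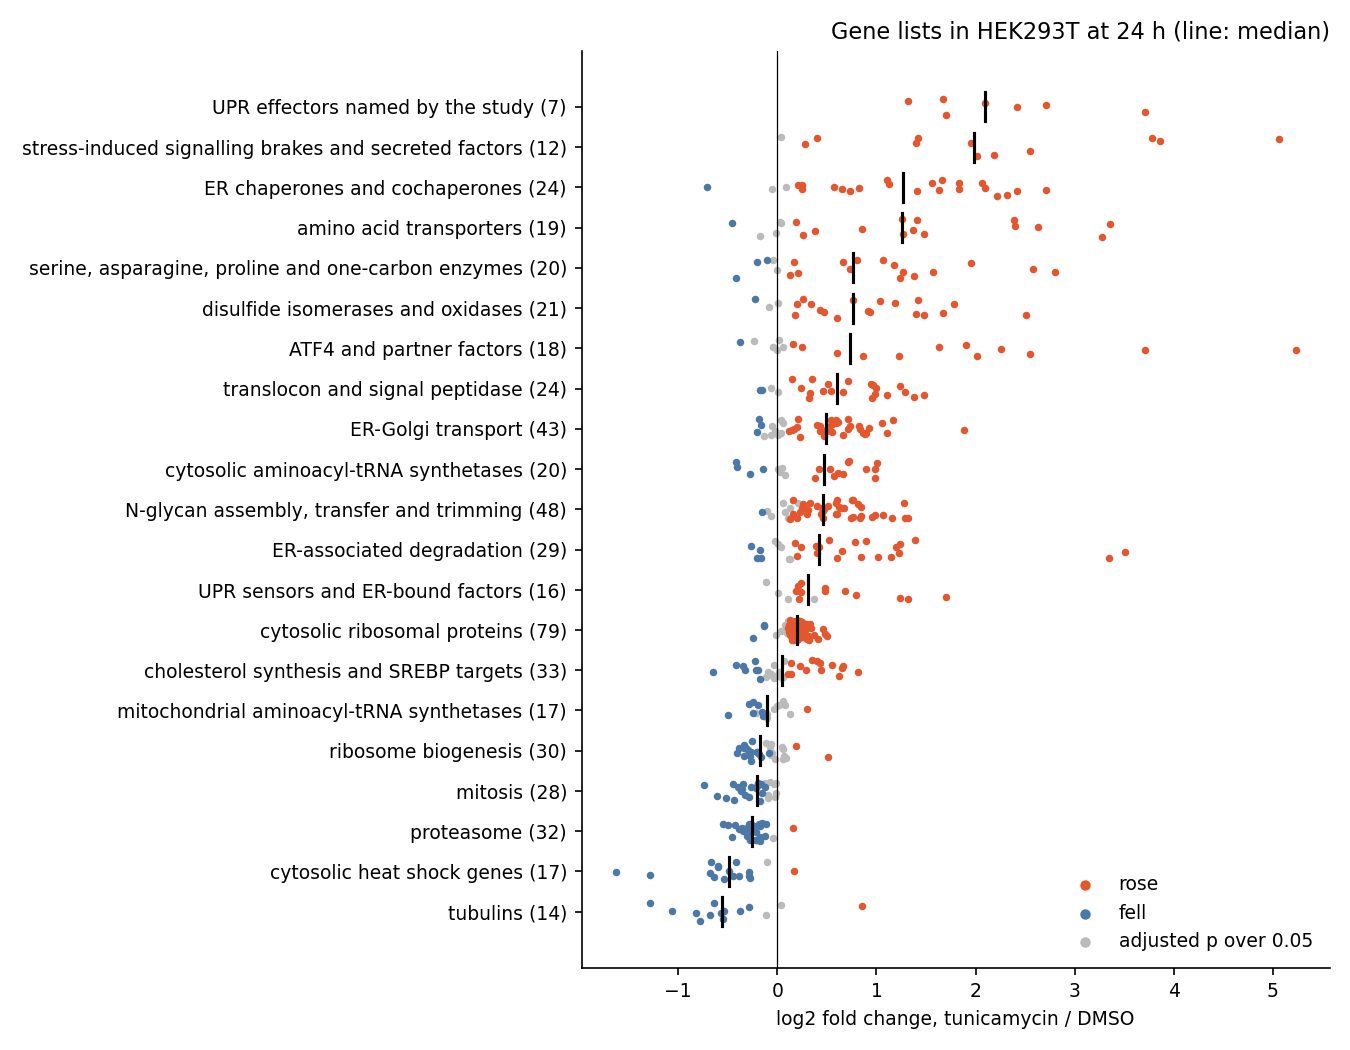
Log2 fold change of each tested member of 21 gene lists in HEK293T cells, with the number of members in brackets and a line at the median. Points in orange rose, points in blue fell and grey points had an adjusted p over 0.05, and the medians run from 2.09 for the UPR effectors to -0.56 for the tubulins.

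A second large group of rises was among genes known from the ATF4 arm. Which arm of the UPR acted on these genes was not tested. Of 18 genes of ATF4 and its partner factors 12 rose, 1 fell and 8 were called higher, against 1.83% of all genes. The median was 0.73. ATF4 mRNA itself, known to be controlled mainly by translation and named here after its values had been seen, rose by 0.60 (SE 0.030). NUPR1, a small stress-induced chromatin protein, was at 0.168, 0.176 and 0.396 CPM after DMSO, from 3, 3 and 8 counts, and at 10.5, 9.5 and 9.26 CPM after tunicamycin. Its log2 fold change was 5.23 (SE 0.25, adjusted p = 9.92e-13). NUPR1 was below 1 CPM in every DMSO library and passed the filter through the tunicamycin libraries alone, so that the filter favoured a rise. TRIB3, a pseudokinase that binds ATF4, rose by 2.54 (SE 0.058) and ATF3 by 2.26 (SE 0.060). ATF5, often placed beside ATF4, was the member that fell, at 11.7, 14 and 14.7 CPM and then 11, 10.9 and 9.04 CPM, a log2 fold change of -0.38 (SE 0.11, adjusted p = 0.012). ATF5 did not pass without DMSO replicate 3 or without tunicamycin replicate 3 (adjusted p up to 0.054).

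Brakes of stress signalling and secreted stress factors rose with them. Of 12 members tested 11 rose and 9 were called higher, against 1.83% of all genes. The median was 1.98, while GDF15, FGF21 and ANGPTL4 did not reach the filter. INHBE, which encodes a subunit of the secreted activin E, was at 0.223, 0.0585 and 0.445 CPM after DMSO, from 4, 1 and 9 counts, and 8.5, 8.6 and 9.04 CPM after tunicamycin, a log2 fold change of 5.07 (SE 0.28). ADM2, the peptide hormone intermedin, was at 0.335, 0.468 and 0.346 CPM and 5.28, 5.44 and 6.25 CPM, a rise of 3.86 (SE 0.26). INHBE and ADM2 also passed the filter through the tunicamycin libraries alone, which favoured a rise. DDIT4, an inhibitor of mTORC1, rose by 1.40 (SE 0.048), and TNFRSF10B, the death receptor DR5, by 0.28 (SE 0.050).

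Amino acid metabolism rose in both synthesis and uptake. Of 20 enzymes for serine, asparagine, proline and folate-linked carbon 15 rose, 3 fell and 9 were called higher, against 1.83% of all genes. The median was 0.77. CTH, which makes cysteine, was at 18.2, 17 and 17.9 CPM after DMSO and 119.7, 121 and 131 CPM after tunicamycin. ALDH1L2, a mitochondrial folate enzyme, rose by 2.58 (SE 0.047), ASNS, which makes asparagine, by 1.96 (SE 0.042) and PSAT1, of serine synthesis, by 1.57 (SE 0.035). PYCR3 fell by 0.41 (SE 0.080) and SHMT1 by 0.20 (SE 0.048), both on the log2 scale.

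Of 19 amino acid transporters 14 rose, 1 fell and 10 were called higher, against 1.83% of all genes. The median was 1.25. SLC1A4, which carries alanine, serine and cysteine, was at 9.83, 11.1 and 10.3 CPM after DMSO and 107, 109 and 105 CPM after tunicamycin. SLC6A9, a glycine transporter, was at 9.38, 9.77 and 9.84 CPM and 96.6, 97.9 and 86.6 CPM. Both were apart by about 10-fold, with log2 fold changes of 3.36 (SE 0.065) and 3.28 (SE 0.072). SLC7A11, the cystine-glutamate exchanger, rose by 2.63 (SE 0.061) from 41.4 ± 4.64 to 257 ± 7.17 CPM, and SLC7A3, a carrier of cationic amino acids, rose by 2.39 (SE 0.11). SLC43A2 fell by 0.46 on the log2 scale (adjusted p = 0.014) with libraries that overlapped, and did not pass without DMSO replicate 1 or 2 (adjusted p up to 0.097).

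Aminoacyl-tRNA synthetases, which charge tRNAs, split by compartment in their counts. Of 20 cytosolic synthetases 12 rose and 4 fell, with a median of 0.47, whereas of 17 mitochondrial synthetases 1 rose and 7 fell, with a median of -0.11. GARS1 rose by 1.00 (SE 0.040), SARS1 by 0.99 (SE 0.037) and WARS1 by 0.98 (SE 0.042). VARS1 and RARS1 fell by 0.41 and 0.41 on the log2 scale (SE 0.050 and 0.048). In mitochondria LARS2 fell by 0.49 (SE 0.048) and PARS2 was the member that rose, at 0.30 (SE 0.092), though it did not pass in 4 of the alternative settings (adjusted p up to 0.071).

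The promoters of the genes that rose were read for elements known from the UPR and ATF4. The windows were RefSeq promoters on GRCh38.p14, from 250 bases before to 50 bases after a start, and 10212 of 12614 protein-coding genes tested (81%) had one. Searched on both strands were the ER stress element (ERSE: CCAAT and CCACG with 9 bases between them), ERSE-II (ATTGG and CCACG with any base between them), the C/EBP-ATF response element core (CARE: TGATGNAA) and the UPR element (UPRE: TGACGTGG). ERSE, ERSE-II and UPRE all hold CCACG or its reverse complement, so that their matches can overlap. In HYOU1 a UPRE match overlaps the ERSE-II farther from the start. These are matches of letters, not sites shown to be bound. The stretches below were picked for holding a match, from the chaperone, degradation and ATF4-arm genes described above. Other genes of these groups are not shown, such as CANX with a match and DNAJB9 and DERL3 without one found. The matched element is in capitals and the sequence runs 5′ to 3′ on the strand of the gene, all before the RefSeq start. GENCODE models of CHAC1, HSP90B1 and ASNS begin farther upstream and contain their stretches, and those of HSPA5 and XBP1 overlap the ends of theirs. HSPA5, HSP90B1, CALR and XBP1 carry ERSE, SDF2L1, HYOU1 and HERPUD1 carry ERSE-II, and HERPUD1, CHAC1, ATF3 and ASNS carry the CARE core.
HSPA5, chr9:125241379-125241421, minus strand: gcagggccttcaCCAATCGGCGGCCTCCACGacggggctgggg
HSP90B1, chr12:103930204-103930351, plus strand: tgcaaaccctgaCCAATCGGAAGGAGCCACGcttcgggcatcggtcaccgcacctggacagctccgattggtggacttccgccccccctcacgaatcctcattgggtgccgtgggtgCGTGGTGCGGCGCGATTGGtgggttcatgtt
CALR, chr19:12938372-12938414, plus strand: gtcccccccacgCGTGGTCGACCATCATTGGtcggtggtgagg
XBP1, chr22:28800591-28800633, minus strand: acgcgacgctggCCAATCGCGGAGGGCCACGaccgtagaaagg
HYOU1, chr11:119057262-119057402, minus strand: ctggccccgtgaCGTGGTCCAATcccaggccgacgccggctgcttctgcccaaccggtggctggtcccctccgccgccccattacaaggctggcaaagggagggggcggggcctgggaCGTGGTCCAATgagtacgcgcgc
SDF2L1, chr22:21642102-21642136, plus strand: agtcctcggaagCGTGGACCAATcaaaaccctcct
HERPUD1, chr16:56931954-56932047, plus strand: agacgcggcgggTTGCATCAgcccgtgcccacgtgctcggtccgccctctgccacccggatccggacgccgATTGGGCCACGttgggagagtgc
CHAC1, chr15:40953250-40953281, plus strand: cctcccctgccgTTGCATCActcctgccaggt
ATF3, chr1:212565204-212565235, plus strand: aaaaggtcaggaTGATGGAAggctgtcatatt
ASNS, chr7:97872457-97872488, minus strand: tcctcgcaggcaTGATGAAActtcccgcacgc

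The elements searched are known from genes of the UPR and ATF4, so that their presence in genes that rose is not independent evidence. ERSE was rare and its genes were nearly all genes that rose. It was present in 22 of the 27305 promoters of the table (0.0806%) and in 14 of the 10212 promoters of tested genes. Of these 14 genes 12 rose and 10 were called higher, namely HSPA5, HSP90B1, FICD, XBP1, ERO1B, CRELD2, CALR, CANX, SERP1 and TRIM5. The median log2 fold change of the 14 was 1.52. Of all 10212 matched genes 2363 rose and 182 were called higher. HSPA5 and HSP90B1, whose sequences stand above, also had the largest rises of the 14, at 2.71 and 2.22. ERSE-II was in 0.0549% of all promoters and in 11 of tested genes, of which 6 rose and 1 fell, and 3 were called, HERPUD1 at 3.35, HYOU1 at 2.09 and SDF2L1 at 2.06. TRIM5, an antiviral factor, and ALG12, a mannosyltransferase of glycan assembly, are not chaperones and rose by 1.16 (SE 0.15) and 0.76 (SE 0.060). The models of ALG12 and CRELD2 overlap on opposite strands, so that their ERSE matches may be the same element.

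The CARE core was in 3.67% of all promoters and in 163 of the tested genes, of which 59 rose and 31 fell, with a median log2 fold change of 0.10, beside 2363 that rose and 2435 that fell of all 10212 matched genes. Of the 182 called-higher genes with a promoter 13 held it (7.14%), against 163 of 10212 (1.6%), and of the 52 called lower 0 held it. Among the 13 were OSTN, CHAC1, HERPUD1, ATF3 and ASNS, named above, HRK and SLC3A2. SLC3A2, FICD, CRELD2, SERP1, TRIM5, ALG12 and SDF2L1 were singled out for these matches after their values had been seen. UPRE was in 0.795% of all promoters and in 96 of tested genes, of which 46 rose and 13 fell. Of the 182 called-higher genes with a promoter 8 held UPRE (4.4%), against 0.94% of the 10212, and of the 52 called lower 0 held it. A gene without a match has only been shown to lack these letters in this window.

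**Figure D4:**
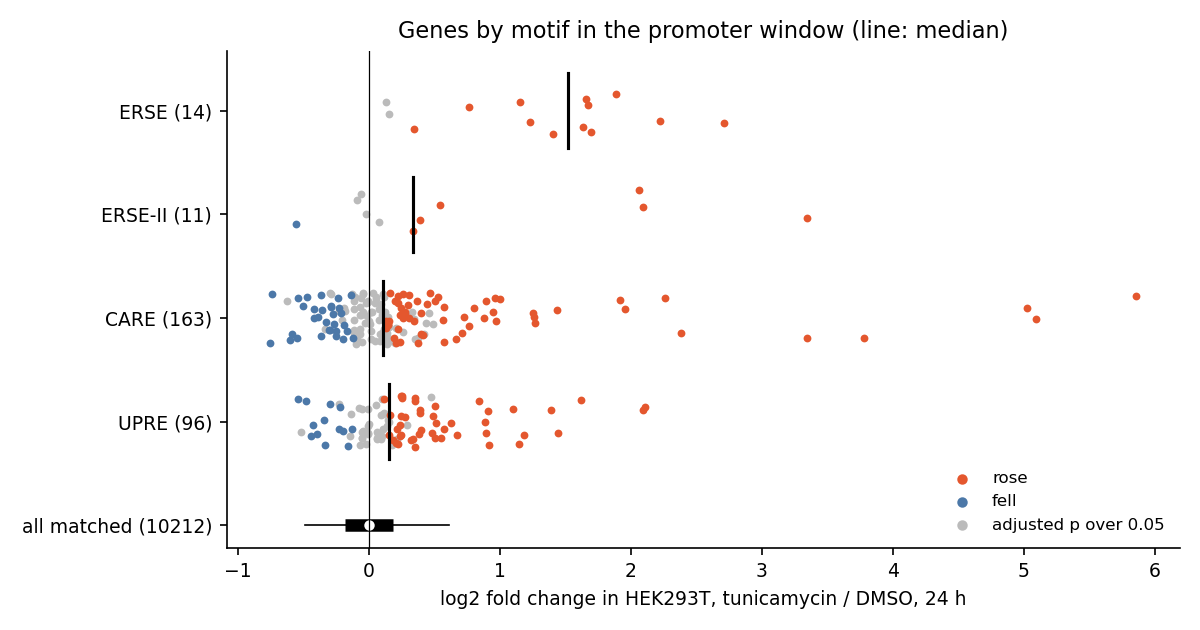
Log2 fold change in HEK293T cells of each protein-coding gene with ERSE, ERSE-II, the CARE core or UPRE in its promoter window, with a line at the median, and below them the 10212 matched genes (bar from the 25th to the 75th percentile, -0.18 to 0.18, line from the 5th to the 95th, -0.49 to 0.61). Of the 14 ERSE genes 12 are orange (rose), whereas CARE and UPRE genes fall on both sides of 0.

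Genes of translation mostly moved by small amounts, and 1 of the initiation factors, EIF4EBP1, was called higher. Of 40 initiation factors 14 rose and 14 fell, and over the alternative settings 7 to 16 rose and 9 to 16 fell. EIF4EBP1, the repressor that binds the cap-binding protein, was at 122, 128 and 108 CPM after DMSO and 338, 336 and 318 CPM after tunicamycin, a rise of 1.47 (SE 0.052) with no overlap. EIF1, which sets start codon choice, rose by 0.75 (SE 0.036) and the scaffold EIF4G1 fell by 0.55 on the log2 scale (SE 0.037). Of 79 cytosolic ribosomal proteins 69 rose and 3 fell, but the median was 0.20 and 0 were called, and in a fit that takes its spread from all 21 libraries 7 rose. RPL28 rose by 0.50 (SE 0.064), RPL10 by 0.48 (SE 0.026) and RPLP0 by 0.46 (SE 0.026), whereas RPS26 fell by 0.25 (SE 0.040), though not with the spread of all 21 libraries (adjusted p = 0.11). These genes have many processed pseudogenes, between which reads can be split. Of 30 ribosome biogenesis genes 2 rose and 17 fell, with a median of -0.17. BYSL and POLR1A fell by 0.41 and 0.39 (SE 0.054 and 0.054), while MYC rose by 0.51 (SE 0.043).

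Splicing factors changed little in mRNA level. Of 20 SR proteins and SR protein kinases 4 rose, 8 fell and 0 were called, with a median of -0.088, and over the alternative settings 1 to 5 rose and 3 to 12 fell. SRSF1 was at 836, 841 and 883 CPM after DMSO and 780.1, 774 and 782 CPM after tunicamycin, a fall of 0.13 on the log2 scale (SE 0.032, adjusted p = 0.0021). CLK1, a kinase of SR proteins, rose by 0.39 (SE 0.056), SRSF8 by 0.30 (SE 0.054), and SRSF2 fell by 0.35 (SE 0.033). Of 5 genes, among those with splicing events that the study names, RBM39, AP3S2 and ARIH2 rose by 0.18, 0.23 and 0.17 (SE 0.035, 0.058 and 0.039), while PRR3 at -0.045 (adjusted p = 0.61) and EIF4A2 at -0.021 (adjusted p = 0.71) did not pass. With the spread taken from all 21 libraries SRSF1, CLK1, RBM39 and AP3S2 no longer passed, with adjusted p of 0.095, 0.079, 0.095 and 0.086. Gene counts do not separate the isoforms of these genes.

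RNA decay and its reporters were examined in the same way. Of 18 snoRNA host genes, whose mature transcripts are often removed by nonsense-mediated decay, 10 rose and 2 fell (1 to 3 over the alternative settings), with a median of 0.26. SNHG32 rose by 1.28 (SE 0.055), ZFAS1 by 0.90 (SE 0.056) and GAS5 by 0.67 (SE 0.038), whereas SNHG16 fell by 0.29 (SE 0.056). Of 14 decay factors 1 rose, UPF3A at 0.35, and 5 fell, UPF2 among them by 0.35. Over the alternative settings 1 to 3 rose and 3 to 6 fell. Of 12 mRNAs known to be cut by IRE1 5 fell (2 to 7 over the alternative settings) and 1 rose, with a median of -0.21, where PMP22 fell by 0.40 (SE 0.11), though not with the spread of all 21 libraries (adjusted p = 0.15), and HGSNAT rose by 0.71 (SE 0.069).

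Among the genes that fell were most of those of cytosolic folding. Of 17 cytosolic heat shock genes 15 fell and 1 rose, with a median of -0.48, against 21.5% of all genes that fell. HSPA1B (ENSG00000204388, chr6:31827738-31830254), an inducible HSP70, was at 1341, 1334 and 1218 CPM after DMSO and 442, 416 and 396 CPM after tunicamycin, a fall of 1.63 on the log2 scale (SE 0.042, adjusted p = 3.66e-17). It was the largest fall among called genes of at least 5 CPM without overlap. Its neighbour HSPA1A is nearly identical, so that reads can be split between them, and it fell by 1.28 (SE 0.27) from 3.98 ± 0.166 CPM. HSPA4 and DNAJB1, cochaperones of HSP70, fell by 0.68 and 0.67 (SE 0.039 and 0.051). HSP90AB1 and HSP90AA1, the cytosolic HSP90 proteins, fell by 0.60 and 0.45 (SE 0.025 and 0.029), while the ER HSP90, HSP90B1, rose by 2.22. As a share of all counts the 17 genes went from 1.16% ± 0.00967 to 0.744% ± 0.00950 (SD, n = 3).

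Tubulins and the proteasome fell in most members. Of 14 tubulins 11 fell, 1 rose and 2 were called lower, against 0.687% of all genes. The median was -0.56. TUBB was at 2047, 2023 and 1989 CPM after DMSO and 1253, 1266 and 1267 CPM after tunicamycin, a fall of 0.68 on the log2 scale (SE 0.027). TUBA1B fell by 0.64 (SE 0.026), TUBA4A by 1.29 (SE 0.21) and TUBB4A by 1.07 (SE 0.11), and epsilon tubulin, TUBE1, rose by 0.85 (SE 0.055). The tubulin genes resemble each other closely, which makes single members less certain than their sum, and that sum went from 0.591% ± 0.00988 to 0.376% ± 0.00389 of all counts (SD, n = 3). Of 32 proteasome genes 30 fell, with a median of -0.26. PSMD11 was at 172, 168 and 163 CPM and 115, 116 and 114 CPM, a fall of 0.55 (SE 0.044), and PSMD1 and PSMD2 fell by 0.50 and 0.46. The member that rose was NFE2L1, a transcription factor of proteasome genes, at 0.16 (adjusted p = 0.016), with libraries that overlapped and no pass in 3 of the alternative settings (adjusted p up to 0.14).

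Mitotic genes that passed fell modestly, whereas genes of DNA replication and the G1/S step moved in both directions. Of 28 mitotic genes 20 fell (13 with the spread of all 21 libraries) and 0 rose, with a median of -0.21. AURKA, a spindle kinase, was at 123, 121 and 124 CPM after DMSO and 76.3, 70.8 and 73.2 CPM after tunicamycin, a fall of 0.74 on the log2 scale (SE 0.048). KIF20A and CCNB1 fell by 0.61 and 0.45 (SE 0.052 and 0.040). Of 37 genes of DNA replication and the G1/S step 7 rose (4 to 12 over the alternative settings) and 16 fell, with a median of -0.061. The D cyclins went apart, CCND2 rising by 1.07 (SE 0.063) and CCND1 falling by 0.93 (SE 0.11), and CDC6, which loads the helicase, rose by 0.67 (SE 0.045).

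Adhesion and developmental signalling genes moved in both directions. Of 29 genes of matrix and adhesion 13 fell and 5 rose, with a median of -0.13, and over the alternative settings 7 to 14 fell and 1 to 6 rose. CDH1, epithelial cadherin, was at 4.64, 5.97 and 4.9 CPM after DMSO and 2.22, 1.49 and 1.1 CPM after tunicamycin, a fall of 1.65 on the log2 scale (SE 0.22), and COL2A1 fell by 0.98 (SE 0.082). CDH2, neural cadherin, rose by 0.27 (SE 0.050), though not with the spread of all 21 libraries (adjusted p = 0.071). Of 20 Notch and Wnt genes 9 fell and 1 rose, with a median of -0.29, RNF43, a membrane ligase that removes Wnt receptors, by 1.34 (SE 0.20) and the receptor NOTCH3 by 0.94 (SE 0.085). Of 16 ID and BMP-SMAD genes 8 fell and 4 rose (2 to 5 over the alternative settings), where SMAD6 fell by 1.00 (SE 0.072) and ID4 rose by 0.81 (SE 0.051). Other large falls of at least 5 CPM were MAP1A, a microtubule-associated protein, at -1.59, the lncRNA MIR1915HG at -1.45, the homeobox gene HOXC8 at -1.27, CAVIN1, of caveolae, at -1.22, ABAT, which degrades GABA, at -1.21, HPCAL4 at -1.20 and PIR at -1.15. RN7SL2, a signal recognition particle RNA, was at -1.43, though such RNAs carry no usual poly(A) tail and have many copies.

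Several pathways often examined in stressed cells had members that moved in both directions. Of 33 genes of cholesterol synthesis and SREBP targets 14 rose and 8 fell, with a median of 0.042, which ran from -0.0026 to 0.07 over the alternative settings, and SREBF1 rose by 0.81 (SE 0.056) while FDFT1 fell by 0.41. Of 21 NRF2 and glutathione genes 6 rose and 8 fell, and ferritin FTH1 rose by 0.94 (SE 0.035) while NQO1, a standard NRF2 target, fell by 0.49 on the log2 scale (adjusted p = 0.017), though not without replicate 2 of either treatment (adjusted p up to 0.087). Of 20 p53 targets 3 rose and 7 fell (4 to 8 over the alternative settings), with GADD45A at 1.63 (SE 0.072) the one called. Of 16 BCL2 family and death receptor genes 5 rose and 3 fell, and the BH3-only genes HRK and BBC3 rose by 1.44 (SE 0.090) and 0.79 (SE 0.11).

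Autophagy, calcium and hypoxia genes moved in both directions. Of 25 autophagy and ER-phagy genes 10 rose, 5 fell and 0 were called, with WIPI1 at 1.00 (SE 0.15), the ER-phagy receptor CCPG1 at 0.82 (SE 0.063) and the kinase ULK1 at -0.36 (SE 0.067). Of 19 genes of ER calcium 8 rose and 1 fell, with 2 called higher and 1 called lower, against 1.83% and 0.687% of all genes. NUCB2 was at 47.7, 44.2 and 49.7 CPM after DMSO and 180.1, 174 and 195 CPM after tunicamycin, a rise of 1.95 (SE 0.056), RCN1 rose by 1.06 (SE 0.040), the pump ATP2A2 by 0.67 (SE 0.035), and its relative ATP2A3 fell by 1.22 (SE 0.20). Of 30 hypoxia-inducible and glycolysis genes 14 fell and 5 rose (3 to 7 over the alternative settings), with a median of -0.21, ALDOC, the one called, falling by 1.05 and P4HA1 rising by 0.69.

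Of the 13 mRNAs of the mitochondrial genome 8 rose, with a median of 0.17, MT-CYB by 0.46, and MT-ND2 fell by 0.10, but with the spread of all 21 libraries 1 rose and MT-ND2 did not pass (adjusted p = 0.72). Of 14 mitochondrial chaperones and proteases 8 fell (5 to 8 over the alternative settings) and 2 rose, HSPE1 falling by 0.66 (SE 0.041) and the protease LONP1 rising by 0.70 (SE 0.054). Of 15 immediate early genes and phosphatases tested 7 rose, JUND the most at 1.23 (SE 0.082). In the same list 2 fell (1 to 2 over the alternative settings), IER3 among them by 0.59 (SE 0.15). Of 7 NF-kappaB targets tested 0 rose and 2 fell (0 to 2 and 1 to 2 over the alternative settings), TNFAIP3 by 0.62. Of 12 interferon-stimulated genes tested 4 fell and 1 rose, IFIT1 at 6.26, 3.92 and 4.85 CPM after DMSO and 1.78, 1.55 and 1.62 CPM after tunicamycin, a fall of 1.60 on the log2 scale (SE 0.22), and ISG15 rising by 0.87 (SE 0.18). Of the 11 HEK293T markers 4 rose and 3 fell (2 to 4 and 1 to 3 over the alternative settings), with NEFM at 0.35, and CORO1A fell by 0.95.

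As a share of the counts, without correction for transcript length, the 8 genes that gained most CPM were HSPA5, EEF1A1, HSP90B1, CANX, PDIA4, CALR, MT-CO1 and RPS2. The elongation factor EEF1A1 was at 9472, 9217 and 9535 CPM after DMSO and 11536, 11636 and 12093 CPM after tunicamycin, a rise of 0.32 (SE 0.022), MT-CO1 rose by 0.26 and RPS2 by 0.31. The last pair no longer passed with the spread of all 21 libraries, at adjusted p of 0.36 and 0.065. The 5 that lost most were HSPA1B, HSP90AB1, TUBA1B, HSP90AA1 and TUBB, described above.

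The effect of 24 h of tunicamycin was then set against that in OCI-AML3 cells. An interaction test covered 12 libraries and the 12347 genes that passed the filter in both lines. This test fits a spread per gene that both lines share. Where OCI-AML3 libraries vary more than HEK293T libraries, the SE of a difference can be too small and its adjusted p too low. For HSPA5 below, the SE of the difference is smaller than that in OCI-AML3 cells alone. The counts of differing genes carry the same limit. The difference of the log2 fold changes had an adjusted p of at most 0.05 for 29.5% of these genes, with 1790 (14.5%) higher and 1857 (15%) lower in HEK293T cells, and without TMM 1402 were higher and 2283 lower. For 4.66% the difference also exceeded 1, higher in HEK293T cells for 1.64% and lower for 3.02%. Counts for gene lists between the lines are to be read against the 14.5% and 15%. Of 23 ER chaperones the effect was lower in HEK293T cells for 11 and higher for 2, with medians of 1.41 in HEK293T and 1.40 in OCI-AML3 cells. HSPA5 rose by 2.71 in HEK293T cells and by 3.54 (SE 0.12) in OCI-AML3 cells, a difference of -0.87 (SE 0.084, adjusted p = 2.49e-06), with 3 libraries a group. MANF and HSP90B1 differed by -1.16 and -1.03 (adjusted p = 3.06e-06 and 6.91e-07). In CHAC1 a difference was not detected, at 0.062 with an SE of 0.23 (adjusted p = 0.86).

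The opposite order held for several other groups. The effect was higher in HEK293T cells for 11 and lower for 3 of 24 translocon and signal peptidase genes, with medians of 0.60 in HEK293T and 0.26 in OCI-AML3 cells. For ER-Golgi transport it was higher for 12 and lower for 2 of 43 genes, and for N-glycan genes higher for 17 and lower for 6 of 47. SEC24D rose by 1.88 and 0.40, a difference of 1.44 (SE 0.099, adjusted p = 9.84e-08). EIF4EBP1 rose by 1.47 in HEK293T cells and stood at -0.020 (adjusted p = 0.92) in OCI-AML3 cells, a difference of 1.45 (adjusted p = 8.09e-06). Of 18 amino acid transporters the effect was higher in HEK293T cells for 7 and lower for 3, and SLC7A11 was among the lower, with a difference of -1.21 (SE 0.25).

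The effect was higher in HEK293T cells for many members of 4 groups whose medians were below 0 in OCI-AML3 cells. Cholesterol genes had medians of 0.042 in HEK293T and -0.99 in OCI-AML3 cells, and the effect was higher in HEK293T cells for 29 of 33 and lower for 0. FDFT1, squalene synthase, fell by 0.41 in HEK293T cells and stood at -1.56 in OCI-AML3 cells, a difference of 1.11 (SE 0.086, adjusted p = 2.78e-07). Mitotic genes had medians of -0.21 and -0.81, with the effect higher in HEK293T cells for 19 of 28, and proteasome genes -0.26 and -0.59, with 13 of 32 higher. Of 79 ribosomal protein genes 26 were higher and 0 lower, with medians of 0.20 and -0.20. The lines differ in tissue of origin and in culture, and the parts of these in the differences cannot be told apart.

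**Figure D5:**
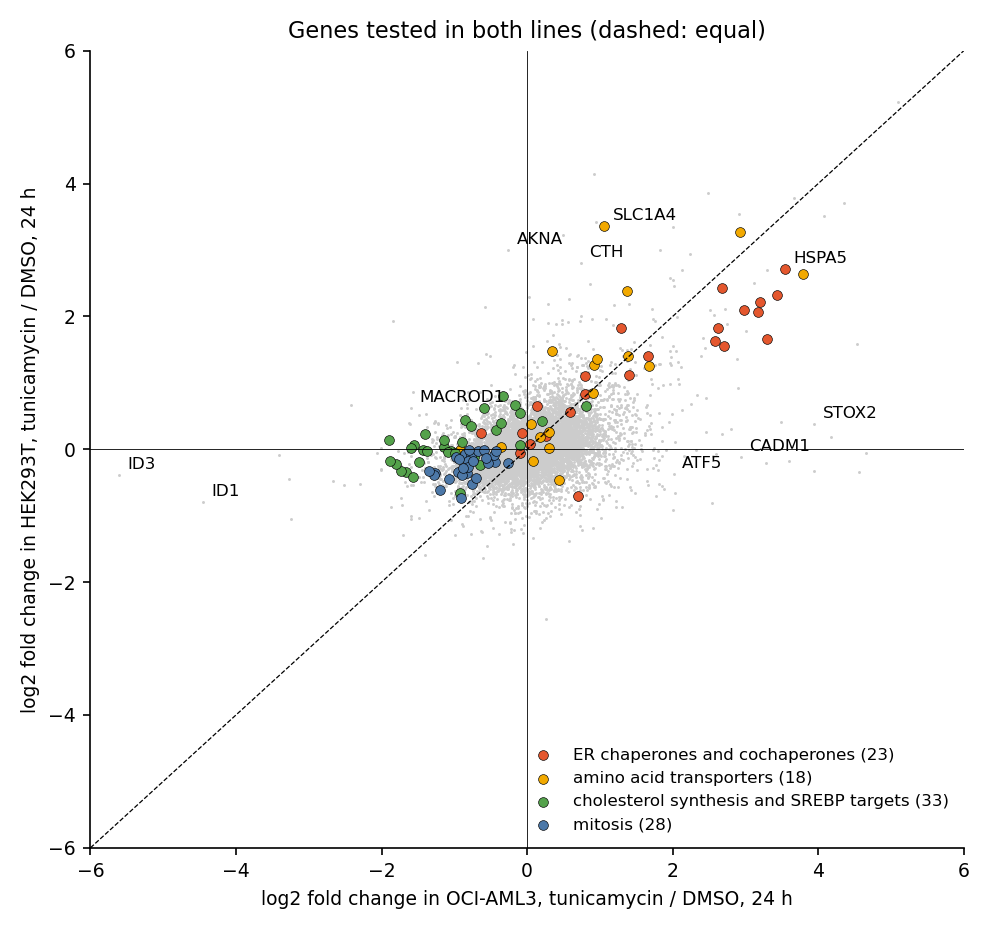
Log2 fold change of tunicamycin over DMSO at 24 h in HEK293T cells (vertical) against OCI-AML3 cells (horizontal) for 12340 genes with a symbol of their own, of which 5 lie beyond the axes, with 4 gene lists in colour and the dashed line marking equal effects. Cholesterol and mitotic genes lie mostly above the line, on the side of falls in OCI-AML3 cells, and ID3, ID1 and STOX2 lie farthest from it among the genes labelled in the plot.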

How the data were processed

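Polyadenylated RNA was sequenced from 21 libraries, and the authors deposited expected counts per gene, estimated by RSEM after alignment to GRCh38 with STAR and not scaled to library size. Between 3.95% and 4.22% of the values in the HEK293T libraries were not whole, and all were rounded. Whether counting used the strand is not given in the sources used here, so that a gene and its antisense partner cannot be told apart. The 6 HEK293T libraries were fitted alone with edgeR 4.0.16 in R 4.3.3 (TMM factors, quasi-likelihood test, no covariate), on the genes that reached 1 CPM in 3 or more of them. P-values were adjusted by Benjamini and Hochberg over all genes tested, and a gene was called at an adjusted p of at most 0.05 with an absolute log2 fold change over 1. The difference between HEK293T and OCI-AML3 cells was the interaction term over 12 libraries, with a dispersion per gene shared by both lines. Totals were 13838480 to 19961819 counts, so that 3 counts equal 0.15 to 0.217 CPM, and the common biological coefficient of variation was 4.49%. On simulated counts for the HEK293T comparison, 200 of 14837 genes were changed. The fit recovered 96.8% of those changed by 1.5 and 100% of those changed by 2 on the log2 scale. There were 19 false calls by adjusted p, 5 of them past the fold, to be read against the 200. Changes smaller than 1.5, as most of those that passed in the data, were not simulated. Names and coordinates come from GENCODE 44, and promoters from RefSeq.

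The genes named were the 12 largest rises and 10 largest falls among called genes with a mean of at least 5 CPM and no overlap, the 8 largest gains and 5 largest losses in CPM, up to 4 rises and 4 falls of each list, the genes the study names, DPAGT1, and the 6 largest differences between the lines each way. A few genes that the rule names are not reported here. Genes outside the rule are marked as chosen after their values were seen. The members and lists were chosen with earlier results of these data known. Alternatives were limma 3.58.1 (voom), DESeq2 1.42.0, other scaling, filters and thresholds, a fit to all 21 libraries, a replicate block and leaving out each library.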

Additional observations from a re-analysis of the deposited data

Results flagged for a closer look

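Between HEK293T and OCI-AML3 cells the 24 h effect of tunicamycin differed by more than 1 on the log2 scale at an adjusted p of at most 0.05 for 575 genes (edgeR's interaction test, 3 libraries a group), higher in HEK293T cells for 202 and lower for 373. The 6 genes farthest from 0 in each direction, among those with a mean of at least 5 CPM in each line, kept their direction and their side of the threshold in every alternative run on them. The differences come from a joint fit of both lines and need not equal the subtraction of the 2 separate fits. The spread in that fit is shared by both lines and can understate the spread of OCI-AML3 libraries.

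ID3 and ID1, inhibitors of basic helix-loop-helix factors, went from 84.4 ± 6.08 to 64.1 ± 3.65 CPM and from 10.5 ± 0.537 to 6.05 ± 0.795 CPM in HEK293T cells, and from 17.2 ± 1.94 to 0.35 ± 0.208 CPM and from 39 ± 7.13 to 1.82 ± 0.572 CPM in OCI-AML3 cells (SD, n = 3). Their differences were 5.18 and 3.62. AKNA, of the centrosome, rose by 3.00 in HEK293T cells and stood at -0.26 in OCI-AML3 cells, a difference of 3.21. SLC1A4 rose in both lines, by 3.36 and 1.06, a difference of 2.25. CTH was at 2.81 and 0.74, a difference of 2.02, and MACROD1, a hydrolase of ADP-ribose marks, at 0.62 and -1.60, a difference of 2.18.

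In the other direction the transcription regulator STOX2 stood at 0.38 in HEK293T and 3.94 in OCI-AML3 cells, a difference of -3.61. The adhesion molecule CADM1 stood at -0.11 and 2.94, a difference of -3.10. MST1, a secreted ligand, stood at 0.30 and 2.81, a difference of -2.55, and ATF5 at -0.38 and 2.01, a difference of -2.43. TENM3, a teneurin, stood at -0.0042 and 2.32, a difference of -2.37, and SNED1, of the matrix, at -0.11 and 2.15, a difference of -2.31.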

How the results depend on the processing

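The 374 genes called in HEK293T cells (272 higher, 102 lower) became 392 to 420 when each library was left out in turn, 270 to 295 higher and 100 to 136 lower. limma voom called 387, DESeq2 358 and edgeR without TMM 377. With genes filtered at 1 CPM in 8 of all 21 libraries, 299 were called (229 higher, 70 lower), of which 257 were shared with the 374. With every gene of at least 1 count tested, 635 were called, 227 of them lower. With a log2 threshold of 0.58 the count was 1361 (850 higher, 511 lower), and with no fold threshold 6425 (3242 and 3183), both by construction. By adjusted p alone, the fit to all 21 libraries gave 1954 higher and 1977 lower, and the cause was not tested. Leaving out a library gave 2754 to 3274 higher and 2633 to 3087 lower. Same-numbered libraries had deviation correlations of 0.0237, 0.0585 and 0.166, against -0.14 to 0.101 for the other pairs, and the labels tie them only by number. The replicate block called 381, of which 370 were shared with the 374. Between the lines 575 genes became 492 to 684 when a library was left out and 540 with the replicate block. The test of every gene with at least 1 count was not run between the lines.

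Of 194 named genes 184 passed, and 163 of these kept their direction and side of the threshold in every setting. 3 genes near 0 changed sign when a library was left out, EIF4A2 (-0.049 to 0.013), SDF2 (-0.12 to 0.00025) and TENM3 (-0.0325 to 0.0197). With the spread taken from all 21 libraries 7 ribosomal protein genes rose, 13 mitotic genes fell and 1 mitochondrial genome gene rose.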

Other observations

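The HOX genes, homeobox factors that record position along the body axis, fell almost as a group. The data had been seen when this list was drawn up, so that its counts are a description. Of 35 of 39 members tested 30 fell, 0 rose and 3 were called lower in HEK293T cells, with a median log2 fold change of -0.60. Of all genes 21.5% fell, 21.9% rose and 0.687% were called lower. HOXC8 was at 7.26, 7.43 and 6.97 CPM after DMSO and 3.28, 3.05 and 2.57 CPM after tunicamycin, and HOXB5 at 22.3, 22.1 and 19.7 and 10.3, 10 and 9.12 CPM. The libraries of both genes did not overlap between treatments. Of all genes tested, 25.6% were lower after tunicamycin without overlap. Over the alternatives at least 17 of the 35 fell. Of 18 HOX genes tested in both lines the effect was lower in HEK293T cells for 12, against 15% of all genes tested in both. The medians were -0.53 in HEK293T and 0.12 in OCI-AML3 cells.

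The following genes were chosen after their values had been seen. BLOC1S5-TXNDC5, a read-through model on chr6:7881522-8064364 (GRCh38), had 107, 34 and 31 counts after DMSO and 0 in each tunicamycin library, with most of the DMSO counts in replicate 1. The overlapping TXNDC5, a disulfide isomerase, rose from 306, 290.0 and 311 to 578, 578 and 579.7 CPM, and how reads were divided between the overlapping models was not tested. FUT1, a fucosyltransferase, had 3, 0 and 2 counts after DMSO and at least 75 in each tunicamycin library. ASNSP1, a pseudogene of ASNS, rose with ASNS, from 14, 3 and 5 to 144, 125 and 98 counts, and the 2 can share reads. FUT1 and ASNSP1 passed the filter through the tunicamycin libraries alone, and BLOC1S5-TXNDC5 through the DMSO libraries alone.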
